A study of Drosophila melanogaster with 2 samples.

Results

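The mitochondrial ribosomal protein genes of Drosophila melanogaster (mRp genes) are described here by the peaks at their promoters in a chromatin immunoprecipitation and sequencing (ChIP-seq) experiment. They were taken as every gene of the Ensembl annotation whose symbol starts with mRpL or mRpS followed by a digit. This gave 73 of 18277 annotated genes on the main chromosome arms, of which 13968 are protein-coding. By symbol, 47 members belong to the large subunit and 26 to the small subunit. The experiment used an antibody against green fluorescent protein (GFP) to precipitate CG13123, which carried a C-terminal GFP tag, from whole embryos aged 0 to 24 h and of both sexes. There is 1 group of 2 biological replicates, numbered 2 and 3 in the labels, made from a single stably transgenic line. A precipitation from embryos without the tag was not analysed here, so what such a precipitation would give at these promoters was not tested. The replicate spread can be read only from each replicate's own list of peaks.

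The mitochondrial ribosome makes the few proteins that mitochondrial DNA encodes, which are core subunits of the respiratory chain and of ATP synthase. It has a large subunit, which holds the site of peptide bond formation, and a small subunit, which reads the mRNA. Its RNA comes from mitochondrial DNA, while all its proteins are encoded by nuclear genes, made in the cytoplasm and imported, so the level of the particle depends on many separate nuclear promoters. Members with low numbers carry the names of bacterial ribosomal proteins, and members with high numbers are mostly proteins added in the mitochondrial lineage.

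Strong peaks were found at the promoters of about 1 in 3 of these genes, and most of those promoters read in both directions. A gene was counted as having a promoter peak when a summit lay within 500 bp of one of its transcription start sites (TSSs). By that rule 24 of the 73 genes (32.9%, Wilson 95% interval 23.2 to 44.3%) had a peak in the list past the irreproducible discovery rate (IDR) threshold, which compares ranks between replicates. The background was 14.3% of all protein-coding genes. At 20 of the 24 promoters the same summit lay within 500 bp of the TSS of a protein-coding gene on the other strand. By annotation, 83.3% of the 24 have such a gene starting within 500 bp upstream. That also holds for 60.2% of all protein-coding genes with an IDR peak.

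Most of the strongest peaks stand between divergent genes. Bases around the summits are shown for mRpS10, mRpS23 and mRpL20, as examples that rank high on the arms printed here and lie clear of annotated exons. They are from the Release 6 genome (dm6) and read 5′ to 3′ along the strand of the mRp gene. The first lies at chr3R:15229432-15229631 on the plus strand, the second at chr2L:13835364-13835563 on the minus strand and the last at chr3L:13018053-13018252 on the minus strand. Capitals mark the word ACAGTG in either direction, a word already known to be common under the IDR peaks of these data.
mRpS10: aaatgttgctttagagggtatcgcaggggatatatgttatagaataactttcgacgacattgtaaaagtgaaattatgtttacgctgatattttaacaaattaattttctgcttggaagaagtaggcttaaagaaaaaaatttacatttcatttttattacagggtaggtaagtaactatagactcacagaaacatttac
mRpS23: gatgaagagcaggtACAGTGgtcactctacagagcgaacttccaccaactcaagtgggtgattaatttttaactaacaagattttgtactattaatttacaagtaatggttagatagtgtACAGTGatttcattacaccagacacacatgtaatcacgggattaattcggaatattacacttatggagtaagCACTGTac
mRpL20: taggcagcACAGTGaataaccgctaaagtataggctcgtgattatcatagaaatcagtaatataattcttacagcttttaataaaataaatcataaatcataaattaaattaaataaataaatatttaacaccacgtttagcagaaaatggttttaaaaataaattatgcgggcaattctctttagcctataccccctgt
The mRpS10 stretch, under the highest peak of the set, holds none of the words searched. Its GC content is 29.5%, against 36.5% in the mRpS23 stretch and 28.0% in the mRpL20 stretch. The stretches at mRpS2 and mRpL24, which rank above mRpL20, hold no ACAGTG in either direction and are not shown. The mRpS2 stretch does not cover all bases within 100 bp of its summit, and in that window mRpS2 does hold the word.

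A different word marks the start sites themselves. The E-box CAGCTG, a site of the kind bound by basic helix-loop-helix proteins and identical on both strands, lay within 100 bp upstream to 50 bp downstream of a TSS in 40 of 73 members (54.8%, Wilson interval 43.4 to 65.7%), against 15.5% of all protein-coding genes. The bases around it are shown for members in the IDR list first (mRpL23, mRpS2, mRpL24, mRpL47, mRpS6, mRpL17) and then for members with no peak in the list of both replicates (mRpL46, mRpS34, mRpS25). Capitals mark the E-box, and each line reads along the strand of the gene. The coordinates are chr3L:2373717-2373742 (minus), chr2L:4850415-4850440 (minus), chr2L:4945326-4945351 (minus), chr3R:9515875-9515900 (minus), chr3L:4364554-4364579 (plus), chr3L:264782-264807 (plus), chr3L:1777427-1777452 (plus), chr3L:16348066-16348091 (plus) and chrX:14582961-14582986 (minus), in that order.
mRpL23: ggttgacaatCAGCTGtttaaaacaa
mRpS2: cactacccacCAGCTGtttaccaaaa
mRpL24: cagttctcaaCAGCTGattgcaagcc
mRpL47: gttattgcttCAGCTGttttgttcgg
mRpS6: ttccttgcatCAGCTGttaacactat
mRpL17: aaatggtcgcCAGCTGttcggcgaat
mRpL46: tgccgcaaatCAGCTGttccggctct
mRpS34: ccagccggcaCAGCTGttcgaccttc
mRpS25: gccgaccgatCAGCTGttcgcattac
These lines are examples, and in most of them the E-box is followed by tt. Other bases follow it at the IDR members mRpL13, mRpL19 and mRpL35. The same holds for mRpL14, mRpL45, mRpL55 and mRpS33, which have no peak in the list of both replicates. Read on the other strand, the E-box is followed by tt at mRpL14, and also at mRpL24 above. The longer word CAGCTGTT, on either strand, was found at a TSS of 29 members (39.7%, interval 29.3 to 51.2%), against 12.9% of head-to-head and 6.85% of all protein-coding genes. This word was not planned and follows the bases seen beside the E-box in these same members. Its excess in them is therefore a description and no independent result. Among 50 other genes of mitochondrial gene expression, described further on, 19 hold the longer word (38.0%), a share close to that of the members.

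The values below are signals, the authors' own value for each peak. No label or header used here states their scale. They rank peaks within a list and are not compared between lists. The IDR list held 2704 peaks with signals of 75.5 to 1992 and was identical to the 2704 highest peaks of the relaxed list made from both replicates together, which held 30000 peaks down to a signal of 19.3. Each replicate's relaxed list held 30000 peaks, with signals of 12.9 to 1242 in replicate 2 and 9.6 to 761 in replicate 3. No entry was identical between the replicates. A peak is called strong in a replicate where it ranks among the 2704 highest of that list, which meant a signal of at least 46.3 in replicate 2 and 33.4 in replicate 3. The embryos were whole, so the number of cells with a protein at a site and its amount in each cell cannot be told apart.

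Among small subunit genes, mRpS10 had the highest peak of the set. mRpS10 is the counterpart of a bacterial protein of the small subunit head. Its signal was 474.5 in replicate 2, 338.2 in replicate 3 and 813 in the list of both, where it ranked 14, and its rank was 15 in each replicate. The peak covers chr3R:15229370-15229707 (dm6), between genes. The summit lay 133 bp upstream of its TSS and 124 bp upstream of that of Art3, an arginine methyltransferase gene, so it stands close to midway between the divergent start sites. mRpS23 ranked 29 in the list of both replicates with a signal of 613, from 347.4 in replicate 2 (rank 33) and 265.6 in replicate 3 (rank 27). Its peak, at chr2L:13835293-13835611, also lies between genes. Its summit lay 394 bp upstream, farther from its gene than at the other IDR members, and 98 bp from the TSS of CenG1A, which encodes a GTPase-activating protein of the centaurin family. Both genes were thus near the top of both replicates, and both share the summit with a neighbour.

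The other small subunit genes in the list had lower signals. mRpS2 reached 248 (rank 240), with 157.6 in replicate 2 and 90.9 in replicate 3. Its summit lay 172 bp from its own TSS and 50 bp from that of Mon1, a gene of endosome maturation. mRpS26 had a signal of 119, with 52.1 in replicate 2 and 60.9 in replicate 3. Next came mRpS7 with 108 (60.7 in replicate 2, 47.9 in replicate 3) and mRpS6 with 107 (61.1 in replicate 2, 45.2 in replicate 3). All 3 were strong in both replicates. The lowest were mRpS31 with 77.6 (39.7 in replicate 2, 40.6 in replicate 3) and mRpS16 with 75.7 (49.0 in replicate 2, 26.8 in replicate 3), the last at rank 2697 of 2704. mRpS7 shares its peak with Cdk1, the mitotic kinase gene, and mRpS6 with Cip4, a gene of membrane and actin remodelling. mRpS16 shares its peak with cg (combgap), a zinc finger protein gene whose TSS is 13 bp from the summit. Only mRpS31 and mRpS16 of the 8 were outside the strong peaks of a replicate. mRpS31 had rank 3527 in replicate 2 and 1913 in replicate 3, while mRpS16 had rank 2447 in replicate 2 and 3906 in replicate 3.

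Among large subunit genes, mRpL41 and mRpL23 stood well above the rest. mRpL41 had a signal of 743 (rank 20) in the list of both replicates, 400.9 in replicate 2 (rank 24) and 341.5 in replicate 3 (rank 14). The peak covers chr2R:15217598-15217925, between genes. Its summit lay 153 bp upstream, and it is the strongest member with no divergent protein-coding neighbour, since the only other gene in reach is a noncoding RNA on the same strand, lncRNA:CR44463, 425 bp away. mRpL23, named after the bacterial protein at the exit of the peptide tunnel, had 447 (rank 59), with 264.3 in replicate 2 (rank 57) and 179.9 in replicate 3 (rank 70). It was the only one of the 24 with its summit downstream of its TSS, by 63 bp, inside its own 5′ UTR, in a peak at chr3L:2373450-2373770. Together with mRpS10 and mRpS23 these were the 4 members among the 100 highest IDR peaks.

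A second tier of large subunit genes followed. mRpL24 had a signal of 239 (137.2 in replicate 2, 101.3 in replicate 3), with its summit 53 bp from the TSS of betaggt-I, a subunit of a geranylgeranyl transferase. mRpL20 had 177 (103.3 in replicate 2, 69.5 in replicate 3) and shares its summit with Icmt, a methyltransferase gene for prenylated proteins. mRpL47 had 149 (95.8 in replicate 2, 52.5 in replicate 3), with a summit 8 bp from the TSS of Kdm3, a histone demethylase gene, and of CG8176. All of these were strong in both replicates. mRpL4 (126), mRpL17 (114.6), mRpL37 (113), mRpL53 (90.3), mRpL43 (87.4) and mRpL11 (80.4) were also strong in both. In replicate 2 mRpL4 had 60.3, mRpL17 75.1, mRpL37 64.5, mRpL53 50.7, mRpL43 48.4 and mRpL11 55.0, and in replicate 3 they had 58.9, 46.4, 50.7, 42.4, 35.0 and 33.5 in the same order. mRpL11 was strong only narrowly, at rank 2687 in replicate 3. Among IDR members, mRpL4 and mRpL19 are those whose peak has no other gene within 500 bp. Neighbours of the others include Tudor-SN, an RNA-binding nuclease gene (at mRpL17), and AGO1, the Argonaute of the microRNA pathway (at mRpL53).

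The other IDR members of the large subunit were strong in 1 replicate only. mRpL34 (87.5, shared with Dg, dystroglycan), mRpL19 (78.8) and mRpL13 (78.0) were strong in replicate 3 and had ranks of 3351, 5743 and 3438 in replicate 2. mRpL51 (78.4, shared with Uba4, a ubiquitin-like activating enzyme gene) and mRpL35 (75.9, shared with Mitofilin, a gene of the inner mitochondrial membrane's cristae) were strong in replicate 2 and had ranks of 4143 and 6076 in replicate 3. mRpL51 and mRpL35 thus belong to the IDR list, as does mRpL19, with 1 replicate well below the length of that list. Among the neighbours, Mitofilin encodes a mitochondrial protein, as does HtrA2, a protease gene that shares the mRpL11 peak.

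**Figure D1:**
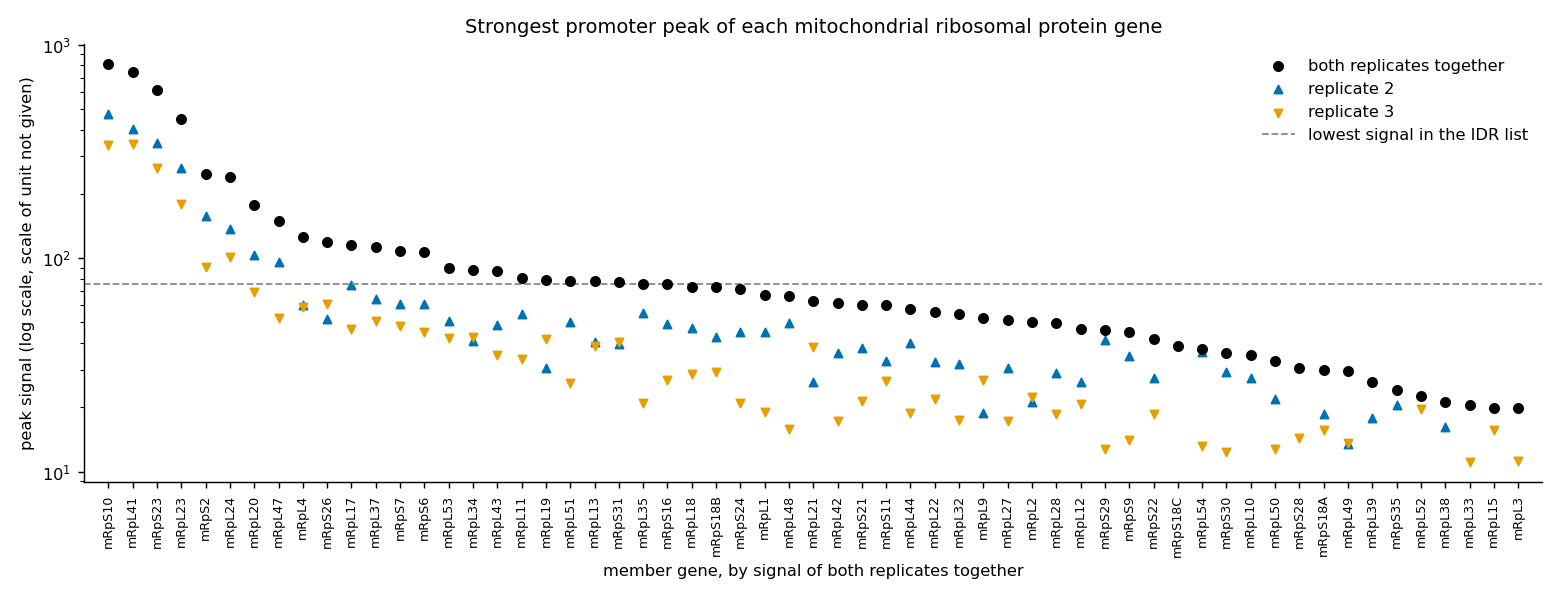
The signal of the strongest promoter peak (log scale; scale of the deposited unit not given) is plotted for each of the 59 mRp genes with a peak in the list of both replicates, in order of that signal, with replicates 2 and 3 as triangles and the lowest IDR signal (75.5) as a dashed line. The genes mRpS10, mRpL41, mRpS23 and mRpL23 lead with 447 to 813 in the list of both replicates, and the others descend without a step through the threshold to 19.8.

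The order of the strongest members was alike in both replicates, while weaker ones moved. Of the 73 genes, 22 had a strong promoter peak in replicate 2 (30.1%, against 14.4% of protein-coding genes) and 22 in replicate 3 (30.1%, against 14.6%). There were 17 genes strong in both (23.3%, interval 15.1 to 34.2%, against 11.5% of protein-coding genes), and all 17 are in the IDR list. Of the 5 strong in replicate 2 only, 3 are in the IDR list, and the other two are mRpL18 (47.0, rank 2628, against rank 3502 in replicate 3) and mRpL48 (49.7, rank 2390, against rank 10822 in replicate 3). Of the 5 strong in replicate 3 only, 4 are in the IDR list, and the last is mRpL21 (38.5, rank 2112, against rank 7656 in replicate 2). mRpL21 shares its summit with rept (reptin), a chromatin remodelling ATPase gene. Over the 49 members with a peak in both replicates, the signals had a Spearman's rho of 0.756 and, on the log2 scale, a Pearson's r of 0.895. These describe genes within a pair of libraries, not independent samples. For the 24 IDR members the summits of the replicates lay a median of 31.5 bp apart and at most 101 bp.

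**Figure D2:**
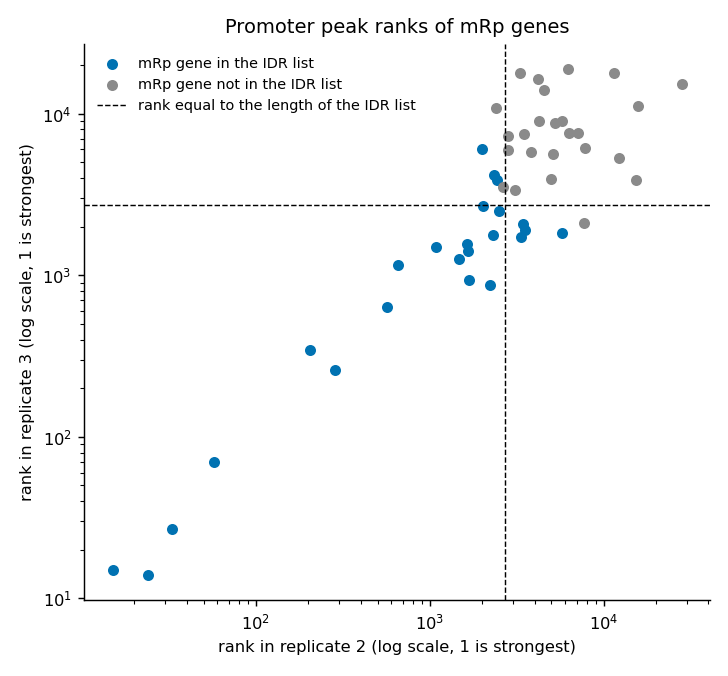
Each point is 1 of the 49 mRp genes with a promoter peak in both replicates, at its rank in replicate 2 (x axis) and replicate 3 (y axis), both on log scales where 1 is the strongest peak; dashed lines mark rank 2704, the length of the IDR list. IDR members (blue) cluster along the diagonal at low ranks, and 7 of them lie past 1 of the lines.

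Most mRp genes start close to a gene on the other strand. A gene was called head to head when a protein-coding gene on the other strand starts 1 to 500 bp upstream of it. That holds for 53 of 73 members (72.6%), against 27.3% of protein-coding genes, and the start sites are a median of 264 bp apart in members (20 to 499 bp) and 244 bp in all such genes. Of the 24 members with an IDR peak, 20 are head to head (83.3%), against 60.2% of all protein-coding genes with an IDR peak. Among head-to-head genes, 20 of 53 members had an IDR peak (37.7%, interval 25.9 to 51.2%), against 31.6% of all 3815 head-to-head protein-coding genes. The interval holds the background, so among head-to-head genes the members' share is near that of others. Of the members not head to head, 4 of 20 had one (20%, interval 8.07 to 41.6%), against 7.85% of 10153 such genes.

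Weaker peaks were also common at these promoters. A summit of the relaxed list of both replicates lay at 59 of the 73 promoters (80.8%, interval 70.3 to 88.2%), against 50.5% of protein-coding genes. Of those 59, 24 were in the IDR list (40.7%, interval 29.1 to 53.4%), against 28.4% of protein-coding genes with such a summit. A relaxed summit lay at 47 of 53 head-to-head members and at 12 of 20 others. For relaxed and strong peaks, no share by that class was computed over all genes, so these gaps are not matched for it. The median IDR signal was 110 in members and 120 over the 1358 distinct IDR peaks at protein-coding promoters. Among IDR peaks those of mRp genes were thus of about the usual height, with 12 of 24 among the stronger 1352 peaks.

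**Figure D3:**
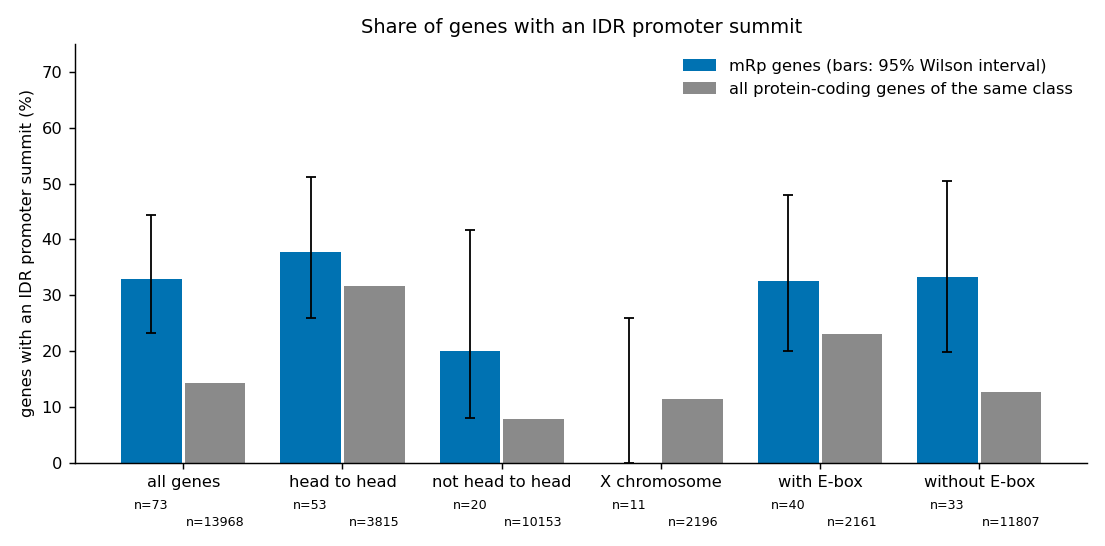
Bars give the percentage of genes with an IDR summit within 500 bp of a TSS, for mRp genes (blue, with Wilson 95% intervals of counting error) and for all protein-coding genes of the same class (grey), with the number of genes under each bar. The mRp share is 32.9% against 14.3% over all genes and 37.7% against 31.6% among head-to-head genes.

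Most summits lay in the space between divergent genes, more often nearer the neighbour. Of the 24 summits, 19 lay between annotated genes, 4 in another gene (the 5′ UTR of HtrA2, Uba4 or Kdm3 and CG8176, and an intron of AGO1) and 1 in the mRp gene itself. At 16 of the 20 shared promoters the summit stood between both start sites. At 3, those of mRpL11, mRpL47 and mRpL51, it lay just inside the neighbour, and at mRpL23 inside the mRp gene. The median distance was 141.5 bp to the mRp start and 105.5 bp to the neighbour's start, and the summit was nearer the neighbour at 14 promoters and nearer the mRp gene at 6. No such count was made over all head-to-head pairs, so whether this lean is particular to mRp genes was not tested. Over all 24 members the summit was upstream of the TSS in 23 (95.8%), and the median position was -138 bp. All protein-coding genes with an IDR peak had 89.0% upstream and a median position of -134 bp. A peak between such genes cannot be given to either one from its position alone.

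**Figure D4:**
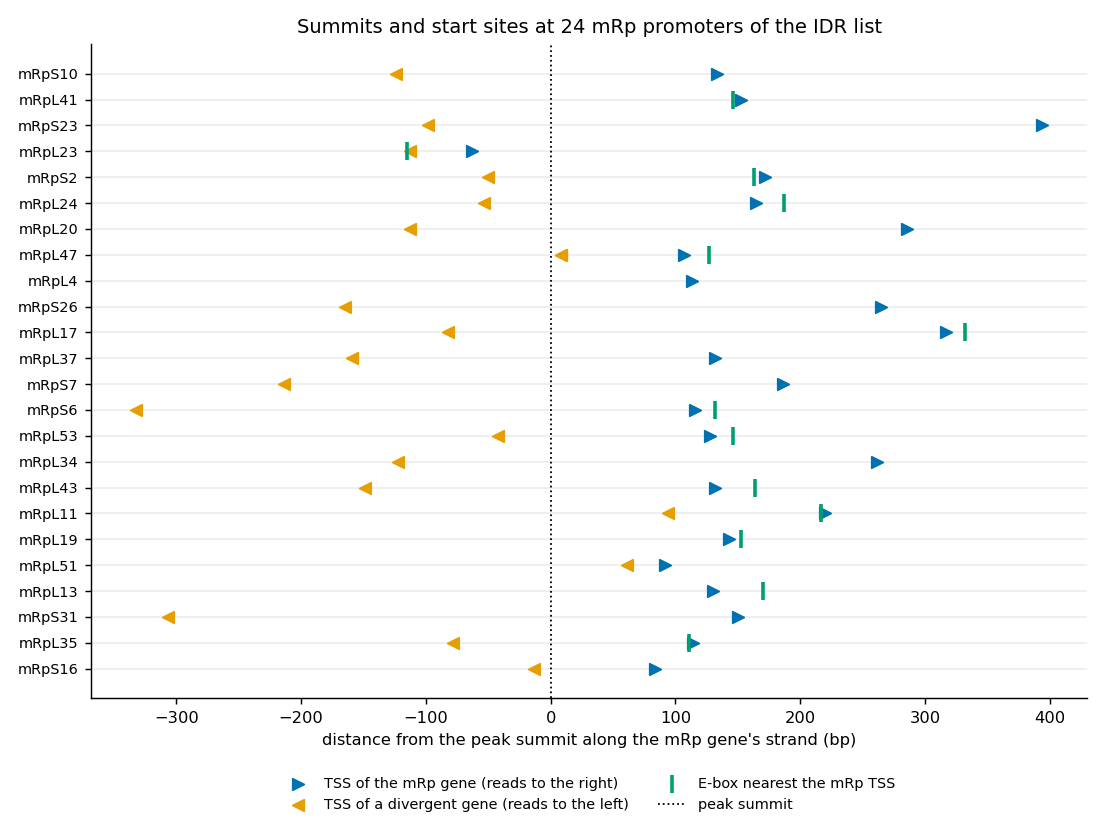
For the 24 mRp genes in the IDR list, from the highest signal at the top, start sites and the E-box nearest the mRp TSS, where one lies at that TSS, are drawn by distance (bp) from the peak summit along the strand of the mRp gene, which reads to the right. The mRp start lies right of the summit in 23 genes, the start of a divergent gene lies left of it in most, and the 13 E-boxes at a TSS fall 111 to 332 bp from the summit.

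The share with a peak was alike by subunit and by name. It was 16 of 47 (34%) for the large and 8 of 26 (30.8%) for the small subunit. Subunits were taken from the symbols, although in mammals the proteins corresponding to mRpS18A and mRpS30 sit in the large subunit. Members numbered up to 36 (large) or 21 (small), the range named after bacterial proteins, had a peak in 15 of 42 (35.7%), and members with higher numbers in 9 of 31 (29.0%).

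By chromosome arm, an IDR peak was found at 7 of 12 members on 2L (58.3%, interval 32.0 to 80.7%, against 14.6% of the arm's protein-coding genes) and at 5 of 12 on 2R (41.7%, interval 19.3 to 68.0%, against 13.2%). It was found at 6 of 17 on 3L (35.3%, interval 17.3 to 58.7%, against 15.9%), 6 of 21 on 3R (28.6%, interval 13.8 to 50%, against 15.9%) and 0 of 11 on the X. The intervals of all arms other than the X overlap widely. The Wilson interval for 0 of 11 reaches 25.9%, and 11.4% of the 2196 protein-coding genes of the X had an IDR peak, so a lack of peaks on the X that is particular to members is not detectable at this number of genes. Of the 11, 7 are head to head and 6 had a relaxed summit. The highest of those was mRpL22 with a signal of 56.0 (32.6 in replicate 2, 21.8 in replicate 3).

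The remaining 35 members with a relaxed summit had signals of 19.8 to 73.3 (median 45.9), and 27 of them are head to head. The highest were just under the IDR limit of 75.5. They are mRpL18 with 73.3, next to Taz, the cardiolipin-remodelling gene tafazzin, mRpS18B with 73.2, next to Kua, and mRpS24 with 71.4, next to Apc2. The lowest were mRpL33 with 20.5, mRpL15 with 19.9 and mRpL3 with 19.8, close to the floor of the list. In 25 of the 35 a summit was also listed in both replicates and in 9 in 1 replicate. The other, mRpS18C, had 38.7 in the list of both replicates and no summit in either replicate's own list.

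No promoter summit was listed for both replicates together at 14 members. These are mRpL14, mRpL16, mRpL30, mRpL36, mRpL40, mRpL45, mRpL46, mRpL55, mRpS5, mRpS14, mRpS17, mRpS25, mRpS33 and mRpS34. Of them 5 had a summit in replicate 2 alone (mRpL16, mRpL40, mRpL55, mRpS5 and mRpS17, at ranks of 6956 to 27597) and 2 in replicate 3 alone (mRpL36 and mRpS33, at ranks of 10613 and 23334), while 7 had none. Only 6 of the 14 are head to head. The lists hold no value for a promoter without a peak, so a signal under the floor of 19.3 cannot be told from none.

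The E-box was as frequent with a peak as without one. It was present at the TSS of 13 of 24 members in the IDR list (54.2%) and of 27 of 49 others (55.1%). It was also as frequent in head-to-head members (29 of 53, 54.7%, against 23.1% of head-to-head protein-coding genes) as in the rest (11 of 20, 55.0%, against 12.6%), and in large (26 of 47) as in small subunit genes (14 of 26). Read the other way, 13 of 40 members with the E-box had an IDR peak (32.5%, interval 20.1 to 48.0%), against 23.1% of all protein-coding genes with it. Of members without it, 11 of 33 had one (33.3%, interval 19.8 to 50.4%), against 12.7% of all such genes.

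Its place was narrow. The first base of the E-box stood at a median of 4 bp downstream of the TSS (72 bp upstream to 38 bp downstream), and in 28 of 40 members (70.0%) it began between 10 bp upstream and 40 bp downstream, against 43.7% of the protein-coding genes that hold it. In the 13 IDR members with an E-box at a TSS, the distance from the one nearest the TSS to the summit was 111 to 332 bp (median 153 bp). The mRpL17 E-box, printed above, is the one 332 bp away. The window was chosen after the data had been seen, and whether CG13123 has any relation to the word was not tested.

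**Figure D5:**
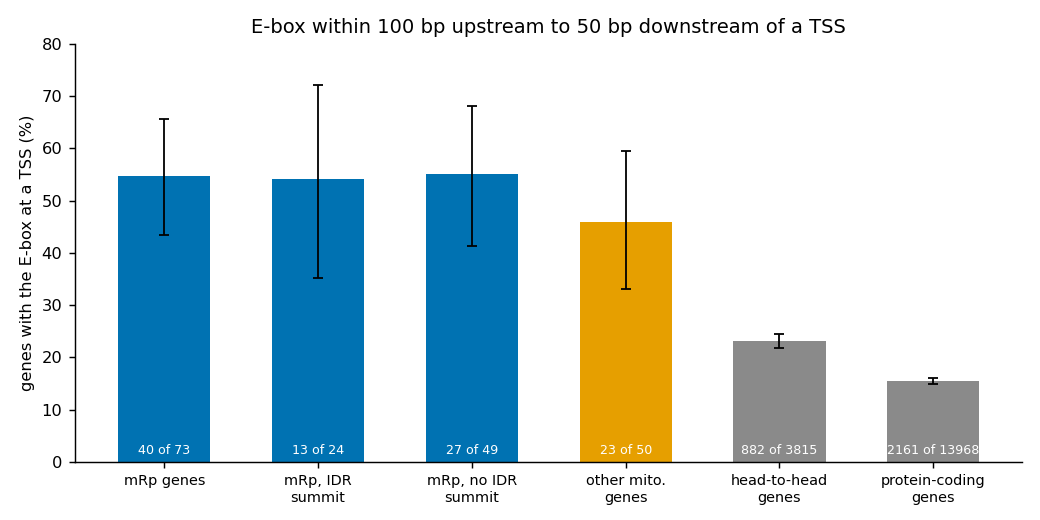
Bars give the percentage of genes with CAGCTG from 100 bp upstream to 50 bp downstream of a TSS, with Wilson 95% intervals of counting error and the counts inside the bars, for mRp genes (blue), 50 other mitochondrial genes (orange) and all head-to-head or all protein-coding genes (grey). The mRp share is 54.2% with and 55.1% without an IDR summit, against 15.5% of protein-coding genes.

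Under the summits themselves, the words searched had small counts near the background. Each was looked for on both strands within 100 bp of the 24 IDR summits and, for comparison, of all 1455 IDR summits at promoters. ACAGTG was found at 5 members (20.8%, against 18.3%) and ACACTG, whose reverse complement shares the bases CAGTG with that word, at 7 (29.2%, against 20.5%). The E-box CAGCTG was found at 4 (16.7%, against 11.5%), the E-box CACGTG at 1 (4.17%, against 2.89%) and ATCGAT, the core of the DNA replication element, at 4 (16.7%, against 18.4%). Core promoter motif 7 was found at 4 (16.7%, against 11.9%). The full DNA replication element TATCGATA (8.59% of all IDR promoter summits), the ETS core CCGGAAG (1.03%), CATGCGC (1.17%), the TCT initiator word CTCTTTC (2.82%) and core promoter motif 1 (2.13%) were at none of the 24. In a window of 200 bp to each side, which reaches most start sites, CAGCTG was found at 14 of 24 (58.3%, against 26.9%). Mean GC content within 100 bp was 34.2 ± 7.02% (SD over 24 windows) in members and 35.1 ± 6.91% over the 1455.

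TATCGATA, the site of the factor DREF, was in turn found at start sites. In the window of 100 bp upstream to 50 bp downstream it was present in 16 of 73 members (21.9%, interval 14.0 to 32.7%), against 8.33% of protein-coding genes. Among head-to-head genes the shares are close, at 9 of 53 members (17.0%, interval 9.2 to 29.2%) against 15.2% of all such genes. Among genes not head to head they differ, at 7 of 20 members (35%, interval 18.1 to 56.7%) against 5.73% of all such genes. In the other genes of mitochondrial gene expression described next, it was present in 11 of 50 (22.0%).

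Other genes of mitochondrial gene expression had IDR peaks at a share whose interval holds that of all protein-coding genes. Over all protein-coding genes the share is 31.6% for those head to head and 7.85% for the rest. The other mitochondrial genes were not compared with the background by that class. Lists of 50 such genes were used, of which 27 had a relaxed summit and 4 an IDR summit (8%, interval 3.15 to 18.8%, against the 14.3% of protein-coding genes), while 23 are head to head and 23 (46.0%, interval 33.0 to 59.6%) hold the E-box at a TSS. The genes with a peak were mtSSB, the single-stranded DNA-binding protein of mitochondrial DNA, with a signal of 165, GatA, a subunit of the amidotransferase that charges glutamine tRNA, with 124, mTerf5, of the transcription termination factor family, with 101, and PheRS-m, the phenylalanine tRNA synthetase, with 77.5. These were 2 of 19 genes of tRNA charging and 2 of 13 genes of mitochondrial DNA and RNA. None of 11 translation factors had an IDR peak, though 7 had a relaxed summit. The small subunit proteins tko and bonsai, which the naming rule misses, had a signal of 37.6 and no summit. Of 5 genes of regulators (ewg, Ets97D, srl, Myc and crc), none had an IDR peak.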

How the data were processed

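ChIP-seq peaks of CG13123-GFP embryos were used as deposited on genome build dm6, in 4 lists: each replicate, both replicates together, and the list past the IDR threshold. The signal and the −log10 q-value of each peak are values deposited by the authors; the signal ranks peaks within a list, and the q-values are not printed. Per the labels, sonication gave a size range of 200 to 800 (unit not stated). No source used here gives the aligner, caller, depth or IDR threshold. The control was not analysed, and the dm3 lists were not used here.

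Summits were assigned to TSSs of Ensembl release 115 (transposable elements left out), and bases were read from the Release 6 genome, with Python 3.11.15, numpy 2.4.6, scipy 1.17.1 and statsmodels 0.14.6. Functions were tested on simulated data. No significance test was run, since there is 1 group. Wilson intervals cover counting error only, and genes are not replicates. Members, gene lists and words were chosen with earlier results of these data known. The E-box window at start sites and the longer word CAGCTGTT were chosen after the data were seen. The genes named are every member with an IDR peak, those strong in 1 replicate only, those with no summit of both replicates, and the 3 highest and 3 lowest of the rest; mRpS18C and mRpL22 were added after their values were seen. One neighbour of a member is not reported here. Alternatives were other TSS windows, TSS choices, list lengths, motif windows and each replicate alone.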

Additional observations from a re-analysis of the deposited data

How the results depend on the processing

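The count of 24 members with an IDR peak (14.3% of protein-coding genes) was 18 with a TSS window of 200 bp (10.4%), 24 with 1000 bp (16.4%), 16 where the peak interval had to cover a TSS (9.31%) and 24 with outermost start sites only (12.9%). In the stronger part of the IDR list (1352 peaks) it was 12, against 8.14% of protein-coding genes. The IDR list needs both replicates, so for each replicate alone strong peaks were counted instead. They were found at 22 members without replicate 2 (14.6%) and at 22 without replicate 3 (14.4%). The 17 members strong in both replicates became 8 with lists of 1352 peaks (6.51% of protein-coding genes) and 25 with lists of double length. The median position of the summit, -138 bp, was -145 bp without replicate 2 and -146 bp without replicate 3. The SD between these 2 replicate medians was 0.707 bp. It does not measure the spread over summits, which lay at -394 to 63 bp in the IDR members, and whether the position differs was not tested. Summits shared with a divergent gene numbered 17 (200 bp) to 22 (1000 bp), beside 20, with no share over all genes to set against these counts. Counting shared summits once left 40.7%, against 24.7%. The 40 members with the E-box at a TSS (15.5% of protein-coding genes) numbered 40 with 200 bp upstream (20.2%), 41 with 300 bp (24.2%) and 38 with outermost start sites (12.1%), so longer windows narrowed the gap to other genes. Of 22 motif counts in windows of 50 or 200 bp, 12 differed more than 1.5-fold, up or down, from the count at 100 bp. The windows are nested, so a count can only fall or stay at 50 bp and rise or stay at 200 bp. Some counts fell on the other side of the share of all IDR promoter summits. Within 50 bp, ACACTG (9.14%), CAGCTG (4.6%) and CACGTG (1.58%) were at 0 of 24, and within 200 bp motif 1 was at 2 (8.33%, against 5.7%). No paired analysis was possible because there is 1 group and no test. The lists carry no read depth, so a weak peak and a shallow library cannot be told apart.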
